A study of Mus musculus with 6 samples.

Results

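Genes for nucleoporins and for the soluble receptors that carry cargo through the nuclear pore were examined for H3K27ac at their promoters in mouse embryonic stem cells (mESCs). Members were chosen by symbol, as protein-coding genes of the GENCODE annotation of GRCm38 named Nup with a number and at most 1 letter, Xpo, Ipo, Kpna or Kpnb1, so that the naming rule uses no measured value, though the gene family was picked with earlier results of these data known. The rule gave 40 genes, 20 nucleoporins and 20 transport receptors, out of 21853 protein-coding genes and 27706 genes with lincRNA genes included. H3K27ac was measured by ChIP-seq in E14 mESCs of the line E14Tg2A Rosa26-Cre Oct4-IRES-Puro, with chromatin of human HEK293 cells added as a spike-in. The 6 samples were 2 replicates each of control cells, cells given the CDK9 inhibitor NVP-2 (labelled 100 nM, 120 min) and cells given the DNA-binding transcription inhibitor actinomycin D (ActD; 1 µg/ml, labelled 800 nM, 120 min). The study's methods give the same dose of NVP-2 as the labels, and a figure legend gives a higher one. The file analysed here is 1 list of 22973 peaks of control cells, which the authors made from both control replicates, so every value below describes control cells and none describes a response to an inhibitor. The list gives positions alone. It carries no height, count or replicate, so the reads behind a peak cannot be read from it, no error between replicates can be given, and the 95% intervals below cover counting error over genes only.

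The nuclear pore complex is a ring-shaped channel through the nuclear envelope, built from many copies of a set of nucleoporins. The Y complex forms its outer rings, the inner ring complex lines its middle, and disordered nucleoporins rich in phenylalanine and glycine fill the channel and the filaments on either face. Importins and exportins bind cargo and these repeats, and the small GTPase Ran loads and unloads them. H3K27ac is a mark of active promoters and enhancers, and most pore and transport genes are used in every dividing cell. The labelled cell type was checked on marker promoters. Of 8 pluripotency genes 6 held a peak, Nanog, Pou5f1 and Sox2 among them, and Esrrb and Klf4 did not. Of 8 markers of other cell types 1 held a peak (Gata4, a gene of endoderm and heart). The share over all protein-coding promoters was 48.8%.

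A promoter was taken as 1 kb on either side of the transcription start site (TSS) of the isoform that spans most of the genome, and was called marked where a peak overlapped it by at least 1 bp. By this measure 39 of the 40 members were marked (97.5%, Wilson interval 87.1 to 99.6%). Of all protein-coding promoters 48.8% were marked, a difference of 48.7 percentage points. The transport receptors were marked at 20 of 20 promoters (interval 83.9 to 100%) and the nucleoporins at 19 of 20 (95%, 76.4 to 99.1%). Nup160, a Y complex subunit, was the member without a peak. By role, 6 of 7 Y complex genes, 5 of 5 inner ring genes, 2 of 2 genes of the channel (Nup54, Nup62), 2 of 2 of the cytoplasmic side (Nup88, Nup214), 2 of 2 of the nuclear basket (Nup50, Nup153) and 2 of 2 of membrane nucleoporins (Nup210, Nup210l) were marked. All 6 exportin, 8 importin beta type and 6 importin alpha genes were marked.

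The TSS itself lay inside a peak at 38 of 40 members (95%), against 44.2% of all protein-coding genes. Nup160 and Nup210l were the exceptions. With windows of 2 kb on either side of the TSS, 40 of 40 members and 49.9% of protein-coding genes were marked. Members are not independent samples of a condition, and no test was run on these shares.

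The same share was taken for genes that act with the members but carry other names. Of 27 further genes of the pore, the Ran cycle and nuclear export of mRNA, 26 were marked (96.3%, 81.7 to 99.3%). The exception was Nup62cl, a relative of Nup62, whose nearest peak lay 29338 bp from its TSS. Ran itself had a peak of 8092 bp, and Cse1l, the exportin that returns importin alpha to the cytoplasm, one of 3423 bp. The widest peaks of these genes were at Nutf2, the import factor for Ran (23887 bp), at Rcc1, the exchange factor of Ran (15936 bp), and at Tnpo1, an importin for RNA-binding proteins (14524 bp). High shares were also found for unrelated housekeeping families. The aminoacyl-tRNA synthetases were marked at 37 of 37 promoters and the translation initiation factors at 49 of 55 (89.1%), so a share near that of the members was not particular to pore genes.

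Peaks at marked members were 1024 to 16652 bp wide. Their median was 2634 bp (order-statistic interval 1969 to 4116 bp), between quartiles of 1954 and 4693 bp. The median over all 10674 marked protein-coding promoters was 2174 bp, with quartiles of 1558 and 4832.5 bp, and lay inside the interval of the members. Of the 39 marked members 24 had a peak wider than 2174 bp. No member had a peak under 1 kb (0 of 39, Wilson upper limit 8.97%), against 10.6% of all marked protein-coding promoters. Peaks of at least 10 kb were found at 3 members (7.69%), all of them nucleoporins, against 10.8% of all. They were at Nup210, at Nup98, where the peak also covered the promoter of Pgap2, and at Nup210l, where it overlapped no base of that gene. The medians of nucleoporins and receptors were 2300 bp (1868 to 4985 bp) and 3020 bp (2027 to 4116 bp), and their intervals overlapped.

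A band of widths from 1800 bp to under 2000 bp, chosen after the values were seen, held 10 of the 39 marked members and 12.3% of all marked protein-coding genes. Widths of the whole list crowd just below 2000 bp: the next band, from 2000 bp to under 2200 bp, held 3.81% of all marked protein-coding genes and 1 member. Of these members 7 were nucleoporins: Nup85, Nup133, Nup214, Nup35, Nup37, Nup43 and Nup54, with peaks of 1846 to 1969 bp. Nup85, Nup133, Nup37 and Nup43 are Y complex subunits, Nup35 belongs to the inner ring, Nup54 to the channel and Nup214 to the cytoplasmic side. The receptors in this band were Ipo8, the importin of Argonaute proteins (1867 bp), Ipo13, which works in both directions (1943 bp), and Ipo9, a carrier of histones and actin (1983 bp).

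**Figure D1:**
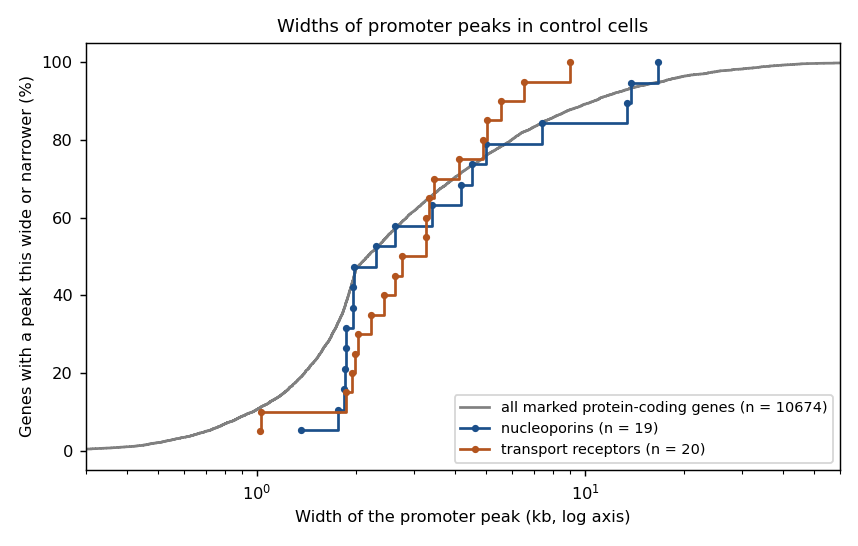
Cumulative share of genes (vertical axis, %) against the width of the promoter peak (horizontal axis, kb, log scale) for 19 marked nucleoporins, 20 transport receptors and 10674 marked protein-coding genes; each point is a member. The nucleoporin line climbs steeply just below 2 kb, where 7 of 19 lie between 1846 and 1969 bp. The line of all genes also bends there. The last 3 nucleoporin points, at 13423 to 16652 bp, lie beyond the widest receptor peak of 8975 bp. The point at 13423 bp is Nup210l, whose peak overlaps no base of that gene.

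On the side of the gene, member peaks reached a median of 1596 bp past the TSS (1191 to 2168 bp), and on the upstream side a median of 929 bp (722 to 1227 bp). The corresponding medians over all marked protein-coding genes were 1172 and 841 bp. Peaks reached farther downstream than upstream at 28 of 39 members (71.8%) and at 67.6% of all marked genes. At 32 of the 39 (82.1%) the downstream end lay in intron 1, against 64.0% of all marked genes. Members are long genes, with a median length of 48112 bp against 17380 bp for all and 23148.5 bp for marked protein-coding genes. A median of 4.49% of the gene was covered by its promoter peak (6.46% over all marked genes). No member was wholly contained in its peak, as 5.51% of all marked genes were.

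**Figure D2:**
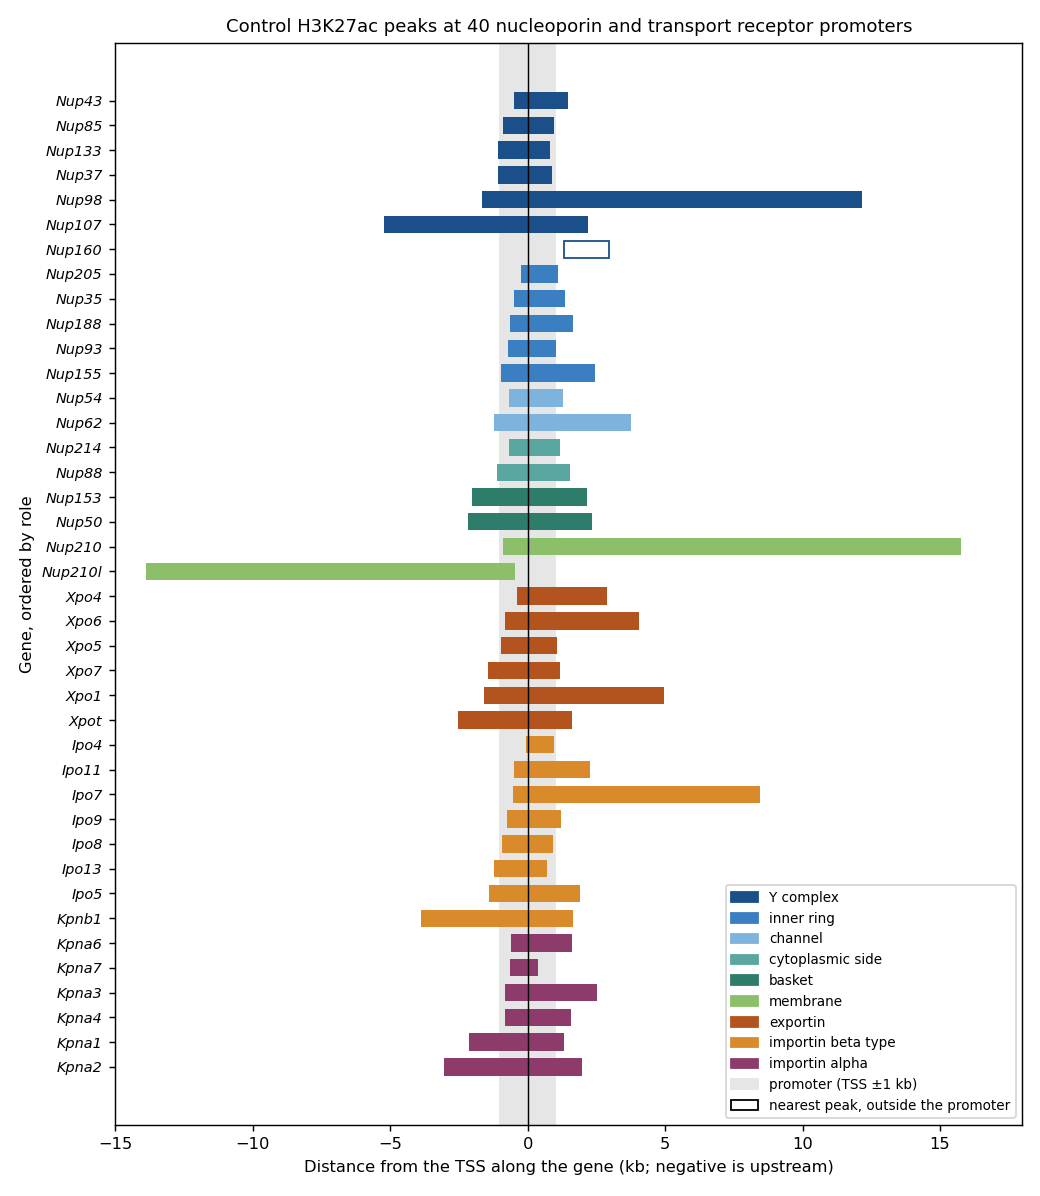
Extent of the control H3K27ac peak at each of the 40 members, as distance from the TSS along the gene (horizontal axis, kb, upstream negative), with genes ordered by role and coloured by it. Nearly all bars cross the TSS; Nup98, Nup210 and Ipo7 extend far into the gene, Nup210l lies wholly upstream, and the open bar of Nup160 starts 1314 bp downstream, outside the shaded promoter.

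Nup210, a membrane nucleoporin of the pore that is known for its induction during muscle and neural differentiation, had the widest peak of all members. It spanned chr6:91101080-91117731 (GRCm38), 16652 bp, at the 94.8th percentile of marked protein-coding genes. It began 902 bp before the TSS at 91116829 on the minus strand and ended 15749 bp after it, in intron 2. Another peak in the gene was of 508 bp and lay with its midpoint in exon 40. Nup98 came next, with 13834 bp at chr7:102197997-102211830, from 1654 bp before to 12179 bp after the TSS and ending in intron 1. Its transcript encodes both Nup98, a mobile channel nucleoporin, and Nup96, a Y complex subunit, which are cut apart after translation. The same peak covered the promoter of Pgap2 on the opposite strand, 186 bp away.

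Ipo7, an importin for ribosomal proteins and histones, had the widest peak among receptors. It was of 8975 bp at chr7:110017756-110026730, with 518 bp before the TSS and 8456 bp after it, so that its extension was into intron 1. Nup107, a central subunit of the Y complex, had 7397 bp at chr10:117790521-117797917, with the larger part, 5212 bp, upstream. Kpnb1, the importin beta that pairs with importin alpha, also reached farther upstream (3891 bp) than downstream (1651 bp). Xpo1, the main exportin for leucine-rich export signals, had a peak of 6517 bp, of which 4946 bp lay past the TSS.

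Among the other exportins, Xpo6, the exporter of actin, had a peak of 4874 bp and Xpot, the exporter of tRNA, one of 4116 bp. Xpo4, which exports the translation factor eIF5A, had 3267 bp, Xpo7, of broad cargo, 2634 bp and Xpo5, the exporter of pre-miRNA, 2027 bp. The 6 exportins thus spanned 2027 to 6517 bp. The importin alpha genes, whose products link classical import signals to Kpnb1, spanned 1028 to 5007 bp. Kpna2, the importin alpha known for its high level in mESCs, had the widest of these at 5007 bp, followed by Kpna1 (3464 bp), Kpna3 (3341 bp), Kpna4 (2437 bp), Kpna6 (2220 bp) and Kpna7 (1028 bp). Ipo5 (3279 bp) and Ipo11 (2773 bp) lay near the middle of the members.

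The narrowest peak was at Ipo4, an importin of histones. It covered chr14:55634708-55635731, 1024 bp, at the 11.1th percentile of marked genes, and started 47 bp before the TSS, the shortest upstream reach of any member whose TSS was inside its peak. The gene is also the shortest member at 10558 bp, and the peak ended in intron 4. Kpna7, with 1028 bp at chr5:145083641-145084668, and Nup205, an inner ring scaffold, with 1357 bp at chr6:35177169-35178525, followed. Nup93, which anchors the inner ring, had 1764 bp at chr8:94213879-94215642, and Nup85, of the Y complex, 1846 bp at chr11:115563536-115565381. The remaining inner ring genes were Nup35 (1870 bp), Nup188 (2300 bp) and Nup155 (3423 bp). Nup62, of the central channel, had 4985 bp, and the basket genes Nup50 and Nup153 had 4512 and 4175 bp.

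Peaks at 7 of 39 marked members (17.9%) also covered the promoter of another protein-coding gene, against 26.5% of all marked genes. These were Nup98 (with Pgap2), Nup62 (with Atf5 and Il4i1), Nup88 (with Rpain), Nup188 (with Dolk), Xpo5 (with Polh), Nup37 (with Parpbp) and Kpna7 (with Arpc1a). Except for Nup62, the neighbour was transcribed from the opposite strand and its TSS lay 51 to 240 bp away. A TSS on the opposite strand within 1 kb was found at these 6 of 40 members (15.0%) and at 11.4% of all protein-coding genes. A list of positions cannot tell which of the paired genes such a peak belongs to. The peaks of Nup62, Nup88, Nup188 and Xpo5 lay at chr7:44814861-44819845, chr11:70968448-70971071, chr2:30285759-30288058 and chr17:46201818-46203844.

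The 250 bases before the TSS and the 50 bases from the TSS on, 300 in all, were read from the GRCm38 genome. Member promoters had a median GC content of 64.0%, against 55.7% for all protein-coding and 61.0% for marked protein-coding promoters. The ratio of observed to expected CpG, which is high in CpG islands, had a median of 0.879 in members (interval 0.790 to 0.958), 0.554 in all and 0.784 in marked protein-coding promoters. A ratio above 0.6, a threshold set after the list was in hand, was found in 36 of 40 members and in 46.5% of all protein-coding promoters. Most marked protein-coding promoters were above it too, since their lower quartile was 0.610. All 20 receptors were above it. The 4 nucleoporins at or below it were Nup35 (0.587), Nup85 (0.534), Nup160 (0.314) and Nup210l (0.298). Nup160 and Nup210l are also the members whose TSS lay outside a peak.

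**Figure D3:**
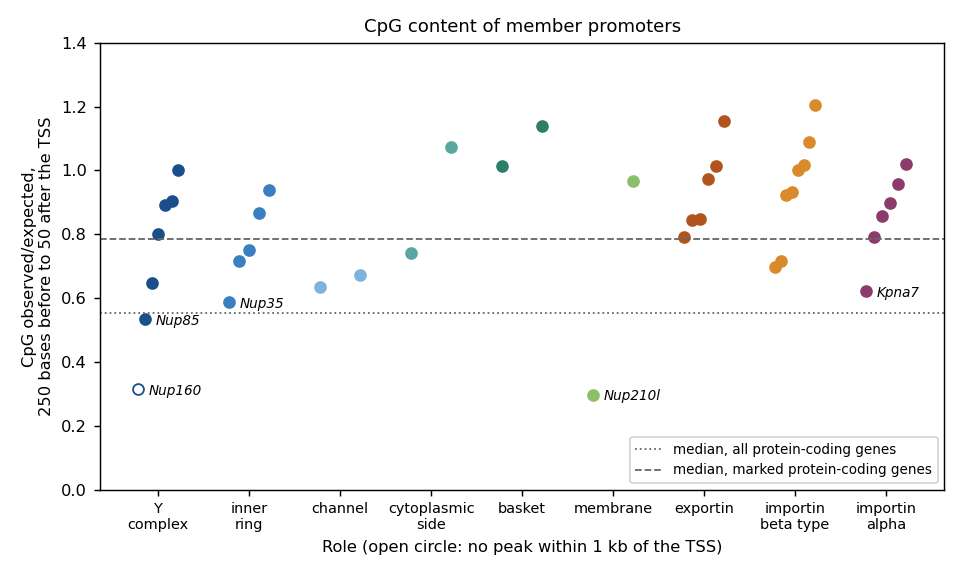
CpG observed/expected ratio (vertical axis) of each member promoter by role (horizontal axis), with filled circles for marked and the open circle for the unmarked member, and lines at the medians of all (0.554) and marked (0.784) protein-coding promoters. Nup160 (0.314) and Nup210l (0.298) lie apart, below both lines, and all 20 receptors lie above the lower line.

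Promoter sequences are shown for the member without a peak, for the widest and the narrowest peak, and, added after the values were seen, for Nup210l, Kpna7, Nup50 and Nup188, on which the start site and motif results turn. Each is given 5′ to 3′ on the strand of the gene. Capitals mark exact matches, on either strand, to the letters of 7 known motifs. Factors of the Sp/KLF family are known to bind GGGCGG and the trimer NF-Y to bind CCAAT. The ETS family is represented by CCGGAAG, the respiratory factor NRF1 by GCATGCGC and the zinc finger factor YY1 by AAGATGGCG. The E-box is written as CACGTG and the TATA box as TATAAA. Nup160 is at chr2:90676965-90677264 (plus strand), Nup210l at chr3:90103884-90104183 (plus), Kpna7 at chr5:145083981-145084280 (minus), Ipo4 at chr14:55635635-55635934 (minus), Nup210 at chr6:91116780-91117079 (minus), Nup50 at chr15:84923161-84923460 (plus) and Nup188 at chr2:30286147-30286446 (plus).
Nup160: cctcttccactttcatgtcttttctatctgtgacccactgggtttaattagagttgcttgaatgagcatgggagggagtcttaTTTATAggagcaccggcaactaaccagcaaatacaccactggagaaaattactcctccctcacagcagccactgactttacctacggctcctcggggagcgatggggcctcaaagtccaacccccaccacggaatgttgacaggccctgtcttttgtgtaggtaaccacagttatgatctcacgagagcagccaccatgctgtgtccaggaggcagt
Nup210l: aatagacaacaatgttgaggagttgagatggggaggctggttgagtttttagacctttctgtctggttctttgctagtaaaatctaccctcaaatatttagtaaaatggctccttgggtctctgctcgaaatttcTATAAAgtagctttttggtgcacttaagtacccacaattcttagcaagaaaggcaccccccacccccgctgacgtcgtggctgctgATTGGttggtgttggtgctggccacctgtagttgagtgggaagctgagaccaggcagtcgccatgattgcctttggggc
Kpna7: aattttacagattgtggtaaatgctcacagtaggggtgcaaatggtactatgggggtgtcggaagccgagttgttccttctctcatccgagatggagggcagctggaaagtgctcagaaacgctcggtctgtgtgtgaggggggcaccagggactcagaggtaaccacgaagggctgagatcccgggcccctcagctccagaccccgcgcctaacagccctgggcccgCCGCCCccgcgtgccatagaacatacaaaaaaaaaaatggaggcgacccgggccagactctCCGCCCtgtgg
Ipo4: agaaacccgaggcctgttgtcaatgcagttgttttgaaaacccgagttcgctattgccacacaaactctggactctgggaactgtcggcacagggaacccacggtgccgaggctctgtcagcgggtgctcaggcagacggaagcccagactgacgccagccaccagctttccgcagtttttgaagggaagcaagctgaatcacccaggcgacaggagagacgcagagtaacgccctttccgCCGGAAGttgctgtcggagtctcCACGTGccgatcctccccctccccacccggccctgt
Nup210: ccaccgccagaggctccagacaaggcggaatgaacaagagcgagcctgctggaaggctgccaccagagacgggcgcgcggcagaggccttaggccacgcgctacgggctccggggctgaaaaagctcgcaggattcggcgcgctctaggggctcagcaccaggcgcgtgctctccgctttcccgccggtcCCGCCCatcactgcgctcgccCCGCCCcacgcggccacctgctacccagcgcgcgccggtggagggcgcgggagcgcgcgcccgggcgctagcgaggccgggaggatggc
Nup50: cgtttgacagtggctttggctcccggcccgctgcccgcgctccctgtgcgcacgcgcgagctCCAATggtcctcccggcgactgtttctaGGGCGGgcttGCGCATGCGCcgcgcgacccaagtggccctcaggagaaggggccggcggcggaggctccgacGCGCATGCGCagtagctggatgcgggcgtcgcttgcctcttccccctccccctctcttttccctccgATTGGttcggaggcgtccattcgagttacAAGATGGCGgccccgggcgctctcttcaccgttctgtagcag
Nup188: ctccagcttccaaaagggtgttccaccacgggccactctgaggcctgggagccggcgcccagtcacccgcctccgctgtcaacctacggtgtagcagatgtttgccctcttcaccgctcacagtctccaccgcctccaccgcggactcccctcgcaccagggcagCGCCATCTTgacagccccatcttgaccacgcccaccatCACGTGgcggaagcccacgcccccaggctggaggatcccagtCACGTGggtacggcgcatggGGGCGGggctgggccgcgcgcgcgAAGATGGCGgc

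GGGCGG was found in 26 of 40 member promoters (65.0%), against 45.0% of all and 66.3% of marked protein-coding promoters, so the members were near the level of marked genes. CCAAT was in 18 of 40 (45.0%; 38.7% of all and 38.8% of marked promoters), CCGGAAG in 6 of 40 (15.0%; 11.2% and 19.4%) and CACGTG in 6 of 40 (15.0%; 7.74% and 10.8%). TATAAA was in 5 of 40 (12.5%; 12.4% and 6.43%). The longer words were rare everywhere. GCATGCGC occurred in 4 members (10.0%), Nup107, Nup50, Nup62 and Xpo5, against 3.70% of all and 5.54% of marked promoters. In each of them it formed part of a palindrome and was matched on both strands, with the copies overlapping. AAGATGGCG occurred in 3 members (7.5%), Nup188, Nup50 and Nup88, against 1.87% and 3.49%. In these 3 the copy on the strand of the gene began 8 to 39 bases after the TSS, counted as base 0, and Nup188 had another on the opposite strand upstream. At 3 or 4 genes these counts are too small to set the members apart. A match shows that the letters are present and not that a factor is bound.

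Nup160 has 1 protein-coding isoform in GENCODE, starting at 90677215 on the plus strand of chr2, and a curated RefSeq transcript starts at the same base. The nearest peak was chr2:90678529-90680160, of 1632 bp, which began 1314 bp downstream of that TSS and so missed the window of 1 kb. It covered exon 2 (90679014 to 90679508) and exon 3, and with exon 2 the start codon at 90679409. Exon 1, of 256 bp, lay outside it. A predicted RefSeq transcript begins 299 bp downstream of the GENCODE TSS, and its window ended short of the same peak, which was 1015 bp away. Another predicted transcript begins 25258 bp downstream and was also unmarked, 4761 bp from the nearest peak. A further peak in the gene, of 2224 bp, lay in intron 20 at chr2:90707234-90709457.

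The base composition changed along the start of Nup160. Windows of 300 bases were taken every 100 bases from 1 kb upstream of the TSS, 51 in all, after the peak position had been seen. A CpG ratio above 0.6 was found in 10 of them, and 9 of these were among the 19 windows that touched the peak. The 10 others touching it were at or below 0.6. They lay at its upstream end and from 2200 bases after the TSS on, some of them wholly inside the peak. The highest ratio, 1.19 at 68.0% GC, was in the window from 1900 to 2199 bases after the TSS, over exon 2, where the promoter window itself had 0.314 at 50.7% GC. The 300 bases of intron 1 that end just before exon 2, chr2:90678714-90679013 on the plus strand, lie in the peak and have a CpG ratio of 0.856 at 45.0% GC. They are shown for comparison with the promoter sequence of Nup160 printed above, with the same motif letters in capitals.
Nup160 intron 1: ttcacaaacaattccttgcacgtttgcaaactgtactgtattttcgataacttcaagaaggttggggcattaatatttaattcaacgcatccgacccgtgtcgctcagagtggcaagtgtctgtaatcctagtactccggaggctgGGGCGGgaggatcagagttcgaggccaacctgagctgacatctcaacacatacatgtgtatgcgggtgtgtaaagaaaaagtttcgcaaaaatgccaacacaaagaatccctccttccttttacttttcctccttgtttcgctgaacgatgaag

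**Figure D4:**
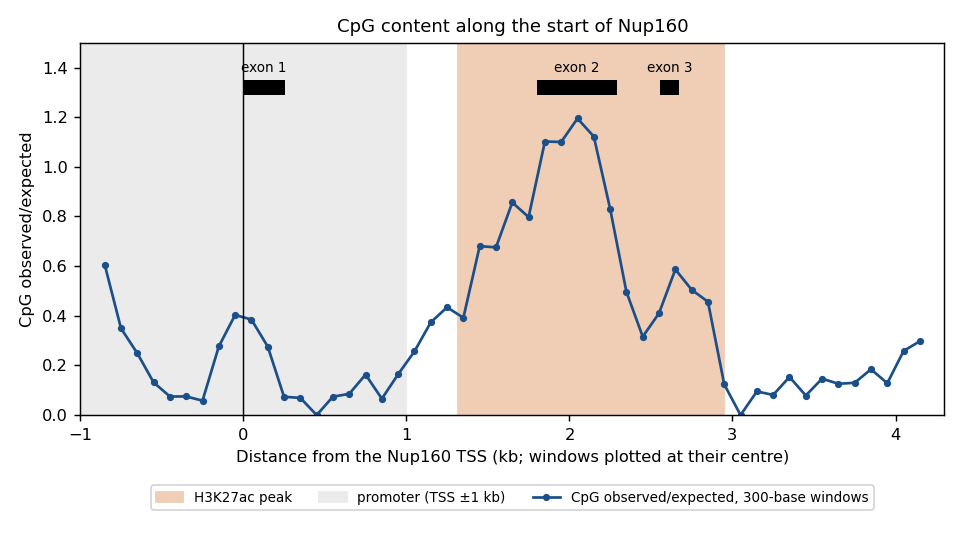
CpG observed/expected ratio (vertical axis) in windows of 300 bases, plotted at their centres against distance from the Nup160 TSS (horizontal axis, kb), with the control H3K27ac peak, the promoter of 1 kb on either side and exons 1 to 3 marked. The ratio is low around exon 1, reaches 1.19 over exon 2, inside the peak, and falls again before the downstream end of the peak.

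Nup210l, a relative of Nup210 known from testis, was called marked by a peak that did not reach its TSS. The peak, chr3:90090249-90103671, was of 13423 bp and ended 463 bp upstream of the TSS at 90104134. It overlapped the gene Tpm3, an actin-binding tropomyosin, on its upstream side and no base of Nup210l in GENCODE. The TSS of Tpm3 used here was 31483 bp from that of Nup210l. Both GENCODE isoforms of Nup210l start within 2 bp of each other, and the curated RefSeq transcript starts 4 bp downstream. Of the predicted RefSeq transcripts, 11 start at 90101007, which is 3127 bp upstream and inside the peak. Another starts at 90127537 and another at 90144626, 19867 and 2778 bp from the nearest peak, and both were unmarked. Within the gene lay a peak of 9756 bp in intron 14 (chr3:90147404-90157159) and one of 7802 bp at its far end that covered the promoters of Rab13 and Rps27 (chr3:90206494-90214295).

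Kpna7, an importin alpha known from oocytes and early embryos, was marked at the start of its longest isoform alone. That TSS, 145084030 on the minus strand of chr5, lay 200 bp from the TSS of Arpc1a, a subunit of the actin-nucleating Arp2/3 complex, and both promoters shared the peak. The 4 other GENCODE isoforms of Kpna7 start 73387 to 76002 bp downstream and had no peak within 1 kb. The curated RefSeq transcripts start 74394 and 75979 bp downstream and were also unmarked, with the nearest peaks 20853 and 19268 bp away. With the isoform of the longest spliced length in place of the longest span, 38 of 40 members were marked, and Kpna7 and Nup160 were not.

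**Figure D5:**
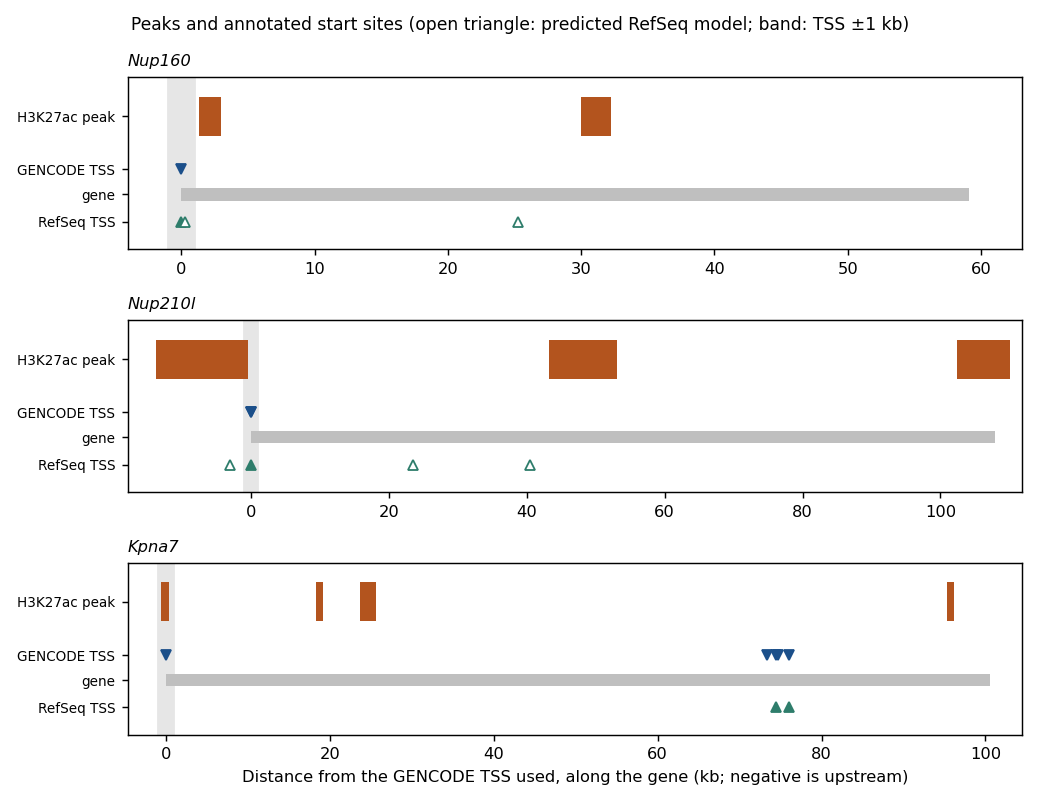
Control H3K27ac peaks (orange), GENCODE and RefSeq start sites (triangles, open for predicted RefSeq models) and the gene (grey) of Nup160, Nup210l and Kpna7, against distance from the TSS used (horizontal axis, kb), with the promoter of 1 kb on either side shaded. The peak near Nup160 starts past the shaded band, that of Nup210l ends before the TSS, and the starts of Kpna7 at 73387 to 76002 bp have no peak.

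For the members as a whole the marked share depended on how start sites were counted. Of the 40 members 31 were matched to a set of RefSeq promoters, which lacked some curated transcripts, that of Nup210l among them. Of these 31 members 29 (93.5%) had a peak within 1 kb of any of their start sites in that set, against 52.1% of the protein-coding genes matched. Kpna7 and Nup160 were again the unmarked members. The members have 112 GENCODE isoforms, of which 85 (75.9%) start within 1 kb of a peak, against 49.4% of the isoforms of all protein-coding genes. Of the 31 members with more than 1 isoform, 16 were marked at every start (51.6%, against 34.9% of all protein-coding genes with several isoforms) and 15 at some (48.4%, against 22.2%). The shares over all genes include genes marked at no start, and none of the 31 members was such a gene. In counts, 4948 of all these genes were marked at every start and 3157 at some, so the members were not marked at every start more often than other genes with a marked start. Nup153, of the basket, had a second start 10673 bp downstream that was marked by a separate peak of 1106 bp. Ipo11 had a start 11808 bp downstream within a peak of 7140 bp.

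Further peaks with their midpoint on the isoform used were found at 13 of 39 marked members (33.3%, Wilson interval 20.6 to 49.0%), against 25.4% of all marked genes, and the part played by the greater length of member genes was not tested. They were at 9 of 19 nucleoporins and 4 of 20 receptors, a difference that was not tested. There were 19 such peaks, 220 to 9756 bp wide, of which 15 had their midpoint in an intron and 1 covered a coding promoter. Ipo11, the longest member gene at 142520 bp and an importin of ubiquitin-conjugating enzymes, had the most, with peaks of 7140, 2379, 2002 and 2391 bp in order from the TSS. Xpo6 had peaks of 4884 bp in intron 1 and 3042 bp in intron 8. Nup155, of the inner ring, had a peak of 6822 bp over exon 35 at the end of the gene, and Nup205 one of 4745 bp in intron 34. Whether such peaks are enhancers, and of which gene, cannot be read from the list.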

How the data were processed

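H3K27ac ChIP-seq was done in mESCs under 3 conditions with 2 replicates each. The deposited file gives the start and end of each control peak in bp, with no score, in mm10 (GRCm38). Read totals per library are stated by the study and were not used here. According to the methods, the authors trimmed reads with Cutadapt, aligned them to mouse and human genomes with bwa meme, dropped duplicates (Picard 2.9.1) and reads of low mapping quality (SAMtools 1.4), ran LanceOtron as the peak caller, merged peaks within 2 kb with Bedtools, and filtered them on height over input and on nearness to ATAC-seq summits. These steps bear on the values: merging widens peaks, and a promoter below a height threshold is not listed.

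Starts were read as counted from 0 and printed from 1. Promoters came from GENCODE M21, an earlier release than the study used, and sequences from GRCm38 (RefSeq). Python 3.11.15, numpy 2.4.6, scipy 1.17.1, pysam 0.24.0 and matplotlib 3.10.9 were used. Shares have Wilson intervals and medians binomial order-statistic intervals. The code was tested on simulated data. The gene family and the lists were chosen with earlier results of these data known, so no test was run; within the family the symbol alone decided membership. Every member is named by role, and the unmarked member, the 5 widest and 5 narrowest peaks and the 5 widest of the peaks shared with another coding promoter are given with positions. The genes named for other start sites, motifs or body peaks were chosen after their values were seen. Alternatives were other windows, isoforms, overlaps and peak filters, and, added after seeing the data, RefSeq start sites. NVP-2 and ActD samples were not analysed here.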

Additional observations from a re-analysis of the deposited data

How the results depend on the processing

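Of 78 values recomputed under an alternative, 71 stayed inside the interval of the original value, 7 moved beyond it, and 0 reversed. With a window of 2 kb the share of marked members became 100.0% and that of nucleoporins 100.0%, because the peak downstream of Nup160 was then counted. The difference from all protein-coding genes, 48.7 percentage points, was 50.8 when the TSS had to lie inside a peak, 53.8 with peaks of at least 1 kb and 53.6 among genes without another TSS within 2 kb, and the cause was not tested. In that last set the other pathway genes were marked at 100.0%, since Nup62cl dropped out. CCAAT was found in 62.5% of members with sequence from 500 bases before to 100 after the TSS, a longer sequence, and in 57.8% of all protein-coding promoters of that length. No paired analysis was possible because the list pools both control replicates and holds no treated sample. For the same reason no replicate could be left out. With no heights, read counts or input in the list, the strength of a peak and the reads behind it cannot be given, and an absent peak does not show absent acetylation. Protein identities between members were not computed.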
